A study of Mus musculus with 6 samples.

Results

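The genes described here are 10 receptors and proximal signalling genes through which neurons sense leptin, insulin, GLP-1 and the cytokines that signal through gp130: *Lepr*, *Cntfr*, *Il6st*, *Ptpn1*, *Asb4*, *Insr*, *Irs1*, *Irs2*, *Foxo1* and *Glp1r*. They were taken by symbol from tables of 24015 genes. All 10 were present and all 10 were among the 15236 genes with enough reads to be tested. RNA sequencing was performed on the arcuate nucleus (ARC) of adult female mice. The labels give a mixed CD-1, 129P2 and C57BL/6 background, and the paper names CD-1 and 129P2 for this line. The 3 controls (*Esr1*fl/fl) and the 3 conditional knockouts (*Esr1*fl/fl;*Nkx2-1-Cre*), called mutants here, all carried floxed alleles of *Esr1*, the gene of estrogen receptor alpha. In the mutants alone, Cre driven by *Nkx2-1* removes the receptor from the whole medial basal hypothalamus and not from the ARC alone, and this model deletes it from development on. The ARC was cut by hand from a 2 mm slice, so a library holds many cell types, and fewer cells of a type cannot be told apart from less RNA per cell.

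Leptin, from fat, binds the long form of the leptin receptor, which activates the kinase JAK2 and the transcription factor STAT3. CNTF and IL-6 family cytokines bind receptors of the same class and share the signalling chain gp130. Insulin acts through its receptor tyrosine kinase, the IRS adaptors, PI3-kinase and AKT, which keeps FOXO1 out of the nucleus, and GLP-1 acts through a G protein coupled receptor that raises cAMP. In the ARC these inputs meet on POMC and AgRP neurons, which lower and raise feeding.

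No difference between the genotypes in any of the 10 genes passed the test (edgeR's quasi-likelihood test, p-values adjusted over 15236 genes), against 0.118% of all tested genes. DESeq2 called 0 of the 10 as well, against 1.27%, and so did edgeR with the replicate number as a block, against 0.807%. Of the 10, 1 had an unadjusted p-value under 0.05 in edgeR's test, where 8.85% of all genes did (4.01% lower and 4.84% higher in mutants), and in 2 of the 10 the genotypes did not overlap, where 15.8% of all genes did not. Both shares were near those of all genes. The genes without overlap were *Glp1r*, lower in every mutant, and *Cntfr*, slightly higher in every mutant. For 9 of the 10 genes the 95% interval of the difference lay within a 1.5-fold change in either direction, and for *Insr*, *Irs1*, *Irs2*, *Foxo1* and *Il6st* within a 1.25-fold change. The exception at 1.5-fold was *Glp1r*.

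**Figure D1:**
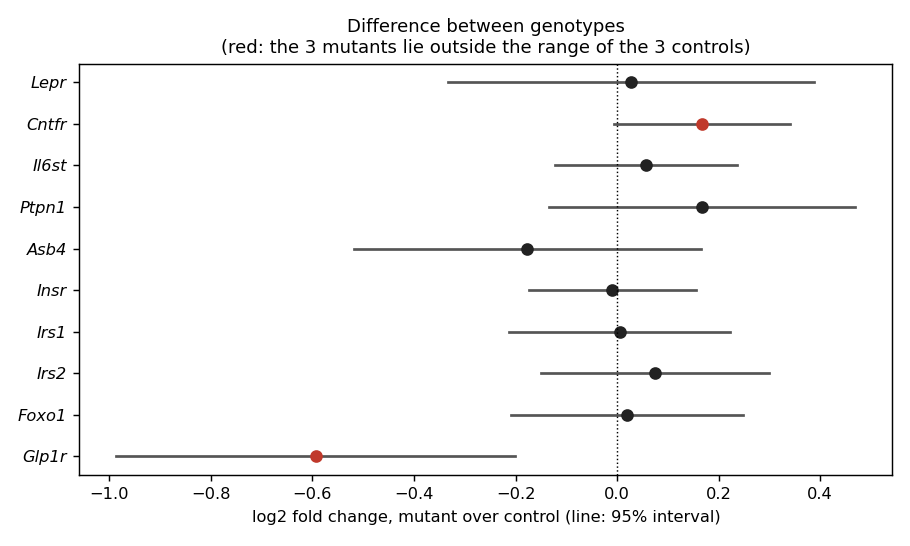
Log2 fold change of each gene, mutant over control (x axis), with its 95% interval from edgeR's fit (line), 3 controls against 3 mutants. The interval of *Glp1r* lies below 0, from -0.99 to -0.20, and the other intervals include 0, that of *Cntfr* narrowly, from -0.0057 to 0.34.

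Sequence around the start sites of the genes without overlap is shown here because the deleted receptor binds DNA at estrogen response elements. The windows are RefSeq's, 250 bases before the start site and 50 from it on. Each matched its own chromosome of NCBIM37 exactly once, and other chromosomes were not searched for it. *Glp1r* was at chr17:31038562-31038861 on the plus strand and *Cntfr* at chr4:41636163-41636462 on the minus strand. That of *Cntfr* is 1 of 6 start sites in RefSeq and was chosen because, of its 3 windows that matched once, it alone holds the core described next. The other 3 windows matched several places of chromosome 4. Capitals mark the core of the element, GGTCA or TGACC on the opposite strand.
Glp1r: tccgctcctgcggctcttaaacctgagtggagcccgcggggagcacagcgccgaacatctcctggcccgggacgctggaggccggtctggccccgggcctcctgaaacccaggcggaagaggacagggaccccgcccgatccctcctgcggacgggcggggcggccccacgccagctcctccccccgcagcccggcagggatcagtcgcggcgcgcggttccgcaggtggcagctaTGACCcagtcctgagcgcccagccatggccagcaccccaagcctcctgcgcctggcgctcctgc
Cntfr: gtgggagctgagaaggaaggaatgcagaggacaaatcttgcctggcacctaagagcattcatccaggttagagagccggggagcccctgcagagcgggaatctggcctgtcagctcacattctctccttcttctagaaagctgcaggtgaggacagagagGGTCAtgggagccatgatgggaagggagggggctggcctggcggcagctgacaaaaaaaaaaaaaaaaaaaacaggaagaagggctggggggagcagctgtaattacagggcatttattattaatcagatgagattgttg
The core in *Glp1r* begins 14 bases before the start site and that in *Cntfr* 90 bases before it. The same core was present in 40.5% of all 32851 windows of this length, so its presence sets neither gene apart. Among the 16 windows found for the genes described here it was in 5, those of *Cntfr*, *Glp1r* and *Il6st*. The window of *Il6st*, in which the genotypes overlapped, held 2 cores. The full element GGTCANNNTGACC was present in 0.07% of all windows and in 0 of the 16 windows of these genes. *Insr* was not in the promoter table. Searches on both strands for a STAT motif, TTCNNNGAA, a FOXO motif, GTAAACA, and the cAMP response element TGACGTCA (it shares the letters TGAC with the core) also gave 0 of 16 windows, against 8.30%, 3.65% and 1.79% of all windows. A missing match says only that these letters are not in these windows.

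The samples were sequenced to between 11792440 and 17877137 counts on genes. *Esr1* was between 48.5 and 64.5 CPM in controls and between 7.06 and 11.8 CPM in mutants, where CPM is the count relative to the TMM-scaled total of the library. The summed level of 10 oligodendrocyte markers was 656 to 1225 CPM in controls and 1584 to 1759 CPM in mutants. Of these, 10 of 10 were higher in every mutant and 2 were past edgeR's threshold. Among all tested genes, 7.88% were higher in every mutant and 0.118% were past the threshold in either direction. The sum of 8 microglia markers was 201 to 219 and 270 to 284 CPM, with 4 of the 8 higher in every mutant and 0 past the threshold. The sums of the neuronal, astrocyte, vascular, tanycyte and choroid plexus markers overlapped. Markers of the ventromedial nucleus, which borders the ARC, summed to 52.3, 169 and 127 CPM in controls 1, 2 and 3 and to 101, 252 and 315 CPM in mutants 1, 2 and 3. No marker was at 0 in all samples. Markers of the pars tuberalis and pituitary, which adjoin the ARC, summed to 8.32 CPM in control 2 and to between 566 and 859 CPM in the other 5 samples. For the ARC itself, *Agrp*, *Pomc*, *Ghrh* and the other markers were detected. They summed to between 1073 and 1134 CPM in controls and between 1192 and 1708 CPM in mutants, highest in mutant 1. Of these 10 markers 3, *Kiss1*, *Tac2* and *Cartpt*, were higher in every mutant. The paper, which used DESeq2, counts *Kiss1* and *Tac2* among its changed genes. In edgeR's test here neither of these 2 passed (adjusted *p* = 0.258 and 0.415). The other ARC markers overlapped, among them *Tbx3*, *Cited1* and *Nkx2-1*, with log2 fold changes of -0.07, 0.02 and -0.09. For a single gene, the smallest two-sided p-value of an exact permutation test of 3 samples against 3 is 0.1.

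**Figure D2:**
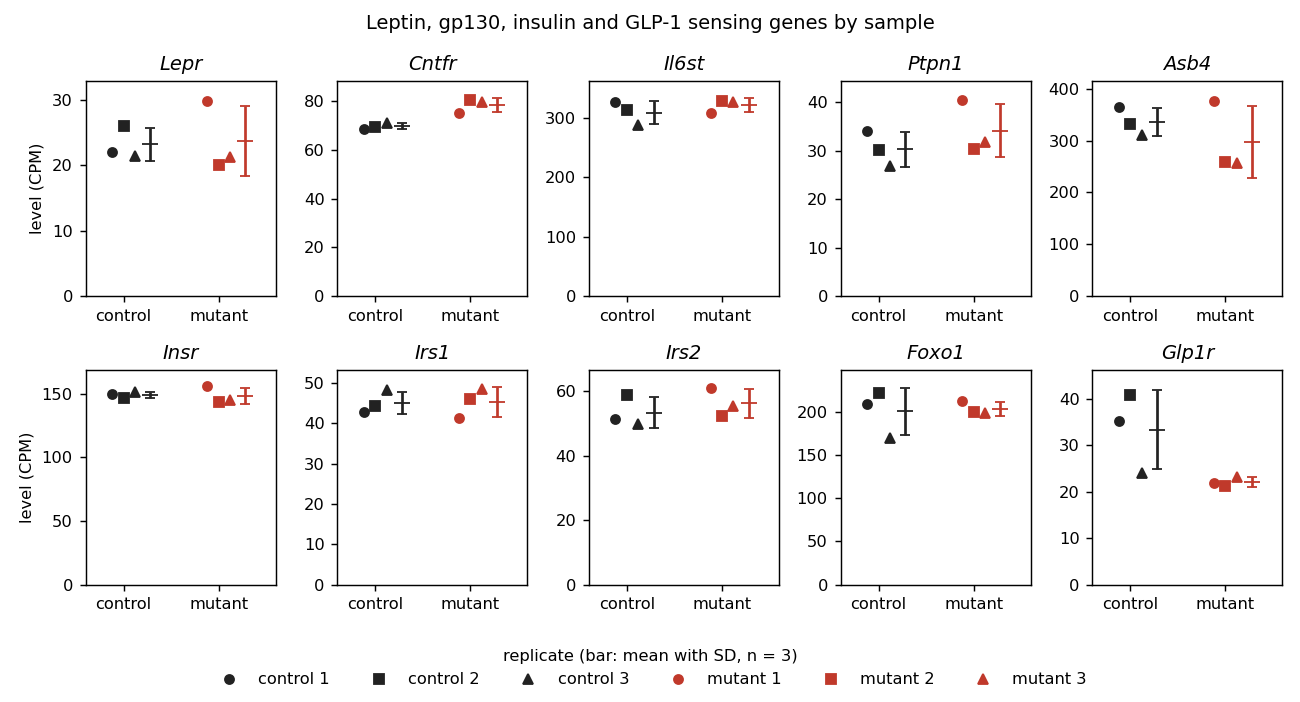
Level of each gene in CPM (y axis, from 0) in the 3 controls (black) and the 3 mutants (red), with the replicate shown by the symbol and the mean and SD (n = 3) beside the points. The *Glp1r* values of the mutants lie together under those of the controls, and mutant 1 stands above the other mutants in *Lepr*, *Ptpn1* and *Asb4*.

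*Lepr*, the leptin receptor (chromosome 4, 101390009 to 101487957 on the plus strand of NCBIM37), was at 22.04, 26.1 and 21.4 CPM in controls 1, 2 and 3 and at 29.9, 20.0 and 21.3 CPM in the mutants. Mutant 1 was the highest of the 6 samples and mutant 2 the lowest, so the mutants enclosed all controls. The means were 23.2 ± 2.51 CPM (SD, n = 3) and 23.7 ± 5.36 CPM (SD, n = 3), a log2 fold change of 0.03 ± 0.16 (SE, edgeR, adjusted *p* = 0.983). The 95% interval of the fold ran from 0.794 to 1.31. The coefficient of variation was 10.8% in controls and 22.6% in mutants, against 4.72 to 5.78% from counting alone. Without mutant 1 the log2 fold change was -0.17 (adjusted *p* = 0.788, edgeR). The gene has 8 annotated transcripts, and the count pools the long form, which signals, with the short forms.

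*Il6st*, the gene of the shared chain gp130 (chromosome 13, 113265216 to 113297068), was at 326, 312 and 287 CPM in controls and at 308, 328 and 326 CPM in mutants. The groups overlapped, with control 3 lowest and mutant 2 highest. Its log2 fold change was 0.06 ± 0.08 (SE, edgeR, adjusted *p* = 0.889), and the interval of the fold ran from 0.919 to 1.18.

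*Cntfr*, the receptor subunit that binds CNTF (chromosome 4, 41604529 to 41644121 on the minus strand of the assembly), was at 68.7, 69.5 and 71.0 CPM in controls and at 75.2, 80.2 and 79.5 CPM in mutants. Every mutant was above every control, as in 7.88% of all tested genes in this direction, and the spread within each genotype was close to that of counting, 1.70% and 3.49% against 2.80 to 3.31%. The fold was 1.12 (95% interval 0.996 to 1.27), with a log2 fold change of 0.17 (SE 0.08, adjusted *p* = 0.571, edgeR; exact permutation test, p = 0.1). It was between 0.15 and 0.20 when each sample was left out in turn and never passed the threshold. Of the 50-base stretches of its annotated exons, 11.7% also occur elsewhere on chromosome 4, against 2.96% for *Lepr*, and reads from them could be lost or split. The summed levels of the oligodendrocyte and microglia markers were also higher in every mutant, with 2 of 10 and 0 of 8 markers past edgeR's threshold, and their part in this difference was not tested.

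Inhibitors of the leptin receptor came next in the pathway. *Ptpn1*, the phosphatase PTP1B, which removes phosphate from JAK2 and from the insulin receptor (chromosome 2, 167757557 to 167804885), was at 34.1, 30.1 and 26.9 CPM in controls and at 40.4, 30.3 and 31.8 CPM in mutants. Mutant 1 was highest and control 3 lowest, and the groups overlapped. Its log2 fold change was 0.17 ± 0.14 (SE, edgeR, adjusted *p* = 0.788), and mutants 2 and 3 lay within the range of the controls. Without mutant 1 it was 0.03.

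*Asb4*, an ankyrin repeat and SOCS box protein of POMC and AgRP neurons that binds the adaptor IRS4 (chromosome 6, 5333386 to 5383022), was at 365, 333 and 310.2 CPM in controls and at 377, 259 and 257 CPM in mutants. Mutants 2 and 3 were below every control, and mutant 1 was above every control. The log2 fold change was -0.18 ± 0.15 (SE, edgeR, adjusted *p* = 0.799), with a fold of 0.884 (95% interval 0.698 to 1.12). Its variation in mutants, 23.1%, was far above the 1.32 to 1.61% of counting. Without mutant 1 the log2 fold change was -0.38 ± 0.10 (SE, edgeR, adjusted *p* = 0.252), and without mutant 3 it was -0.08. Mutant 1 was also the mutant with the highest sum of ARC markers, 1708 CPM, and the lowest of ventromedial markers, 101 CPM. The ARC sum includes *Kiss1*, *Tac2* and *Cartpt*, each higher in every mutant. Control 1, with the highest *Asb4* among controls, had the lowest ventromedial sum of all, 52.3 CPM. Controls 2 and 3 did not follow this order, with ventromedial sums of 169 and 127 CPM and *Asb4* at 333 and 310.2 CPM. The part of the dissection in these values was not tested.

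The insulin receptor and its adaptors were close to equal in mean level between the genotypes. *Insr* (chromosome 8, 3150922 to 3279617 on the minus strand of the assembly) was at 149, 146 and 151 CPM in controls and at 156, 143 and 145 CPM in mutants. Its log2 fold change was -0.0099 ± 0.07 (SE, edgeR, adjusted *p* = 0.988), and its 95% interval, 0.886 to 1.11-fold, was the narrowest of the 10 genes. *Irs1* (chromosome 1, 82229676 to 82287991 on the minus strand), an adaptor that recruits PI3-kinase, was at 42.9, 44.4 and 48.2 CPM in controls and at 41.3, 46.1 and 48.6 CPM in mutants, with a log2 fold change of 0.0049 ± 0.10 (SE, edgeR, adjusted *p* = 0.996). *Irs2* (chromosome 8, 10986980 to 11008458 on the minus strand), the adaptor most tied to hypothalamic insulin action, was at 51.4, 58.9 and 49.9 CPM in controls and at 61.1, 52.3 and 55.4 CPM in mutants, with a log2 fold change of 0.07 ± 0.10 (SE, edgeR, adjusted *p* = 0.885). In all 3 genes the mutants overlapped the controls, and mutant 1 held the highest value of *Insr* and *Irs2* and the lowest of *Irs1*. An antisense gene shares 30.9% of the annotated exon bases of *Irs1*, and another shares 4.03% of those of *Irs2*. The strand setting of the counting is not given in the sources used here, so reads from these shared bases cannot be told apart. The partner of *Irs2* had between 1 and 12 counts per sample, and that of *Irs1* was not among the counted genes.

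*Foxo1*, the transcription factor that AKT shuts out of the nucleus (chromosome 3, 52072259 to 52154031), was at 209, 222 and 169.9 CPM in controls and at 212, 199 and 198 CPM in mutants. The mutants lay inside the range of the controls, in which control 3 was the lowest. The log2 fold change was 0.02 ± 0.10 (SE, edgeR, adjusted *p* = 0.979), with an interval of 0.866 to 1.19-fold. An antisense transcript, whose gene was not among the counted genes, shares 12.1% of its exon bases. These are RNA levels, and where the FOXO1 protein lay in the cell was not measured.

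*Glp1r*, the GLP-1 receptor (chromosome 17, 31038785 to 31073455 on the plus strand), is expressed in POMC and CART neurons of the ARC, among others. It was at 35.1, 40.7 and 24.0 CPM in controls 1, 2 and 3 and at 21.9, 21.2 and 23.2 CPM in the mutants. Every mutant was below every control, as in 7.88% of all tested genes in this direction, but control 3 lay close to the mutants. The exact 95% Poisson interval of control 3, which covers counting error only, ran from 21.5 to 26.8 CPM and overlapped that of mutant 3, 20.8 to 25.8 CPM. The means were 33.3 ± 8.49 CPM (SD, n = 3) and 22.1 ± 1.01 CPM (SD, n = 3), a fold of 0.663 (95% interval 0.505 to 0.870). The log2 fold change was -0.59 (SE 0.17, edgeR, unadjusted *p* = 0.00753, adjusted *p* = 0.323), and this unadjusted p-value ranked 354 among 15236 genes. An exact permutation test gave p = 0.1. DESeq2 gave an adjusted p-value of 0.114. Mutants varied by 4.59%, below their counting error of 5.36 to 6.13%, and controls by 25.5%, against 3.78 to 5.46% from counting. Without control 3 the log2 fold change was -0.78 ± 0.12 (SE, edgeR, adjusted *p* = 0.0745), and without control 2 it was -0.42 (adjusted *p* = 0.559, edgeR). The summed oligodendrocyte and microglia markers, by contrast, were higher in every mutant, and their part in the lower *Glp1r* was not tested. Control 2, the highest in *Glp1r*, had 8.32 CPM of pars tuberalis and pituitary markers, against 566 to 859 CPM in the other samples. The other 2 controls did not follow this order. Control 1 had 859 CPM of these markers and *Glp1r* at 35.1 CPM, and control 3 had 624 and 24.0 CPM. The part of this difference in markers was not tested either.

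The genes most like *Glp1r* over the 6 samples were *Pde4b*, *Usp7* and *BC018507*, with Pearson's r of log2 CPM of 0.998, 0.996 and 0.992. *Pde4b*, a phosphodiesterase that breaks down cAMP, was at 190.4, 203 and 166 CPM in controls and at 162, 160.4 and 165 CPM in mutants. As in *Glp1r*, the mutants lay together and control 3 lay near them. The genes most like *Lepr* were *Fastkd1*, *Aftph* and *Nmu*, with r of 0.993, 0.986 and 0.984, and those most like *Insr* were *Cyp4f17*, *Mss51* and *Pqlc3*, with r of 0.983, 0.983 and 0.982. With 6 points and 15236 genes such values are descriptions only, and the points share genotype, dissection and depth.

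Across the 10 genes, the samples did not differ evenly. Mutant 1, the library with the fewest counts, held the highest value in 5 genes, *Lepr*, *Insr*, *Irs2*, *Ptpn1* and *Asb4*, and the lowest in 1, *Irs1*. Control 3 held the lowest in 4, *Irs2*, *Ptpn1*, *Foxo1* and *Il6st*. The largest deviation from a gene's own mean was that of control 2 in *Glp1r*, 0.59 on the log2 scale.

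**Figure D3:**
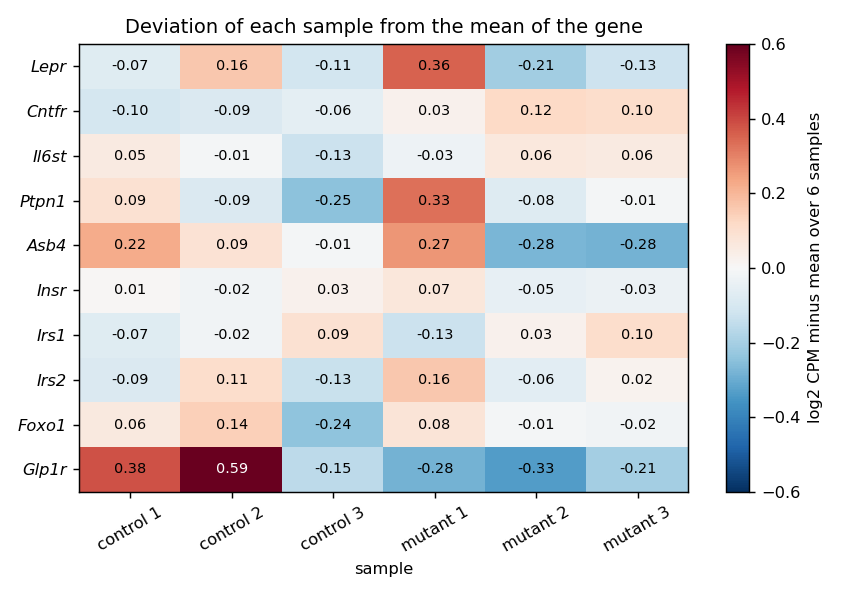
Deviation of each sample (columns) from the mean of the gene over 6 samples (rows), in log2 CPM, with red for higher and blue for lower. *Glp1r* holds the strongest colours, 0.59 in control 2 against -0.33 in mutant 2, and mutant 1 is red in *Lepr*, *Ptpn1* and *Asb4* at 0.36, 0.33 and 0.27.

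Per kilobase of annotated exon, which allows genes to be compared with each other, *Asb4* had the highest level, with a median of 81.8 CPM per kb over the 6 samples (65.3 to 95.8). *Il6st* followed at 61.3 (55.1 to 63.1), *Foxo1* at 36.8 (30.6 to 39.9) and *Cntfr* at 26.3 (24.7 to 28.8), and the ranges of these 4 genes did not overlap. *Glp1r* had a median of 15.7 CPM per kb, and its range of 14.1 to 27.0 overlapped those of *Cntfr* and *Insr*, which was at 15.3 (14.8 to 16.1). *Insr* in turn overlapped *Irs2* at 13.4 (12.4 to 15.2). The lowest levels were those of *Ptpn1* at 5.61 (4.86 to 7.31), *Irs1* at 4.95 (4.51 to 5.31) and *Lepr* at 3.09 CPM per kb (2.84 to 4.24). The shared chain gp130 was above *Cntfr*, which signals through it, and *Lepr*, which belongs to the same receptor class. Lengths are those of GENCODE, whose model of *Glp1r* holds 1507 bases of exon, and the authors' annotation may differ. With the longest transcript in place of all exons, the control means of 5 of the 10 genes moved by more than their SD, and that of *Cntfr* went from 25.1 to 34.95 CPM per kb, into the range of *Foxo1*, so the separation of these genes depends on the length used.

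The other genes of these pathways were read from 12 lists of 104 genes, of which 91 were tested. None of the 91 passed edgeR's threshold, and 6 had an unadjusted p-value under 0.05, 2 higher and 4 lower in mutants, a smaller share than the 8.85% of all genes. The median log2 fold change of the 91 was -0.015, beside 0.0036 for all tested genes. DESeq2 called 3, *Cish*, *Bcl6* and *Cartpt*, against 1.27% of all genes it tested.

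**Figure D4:**
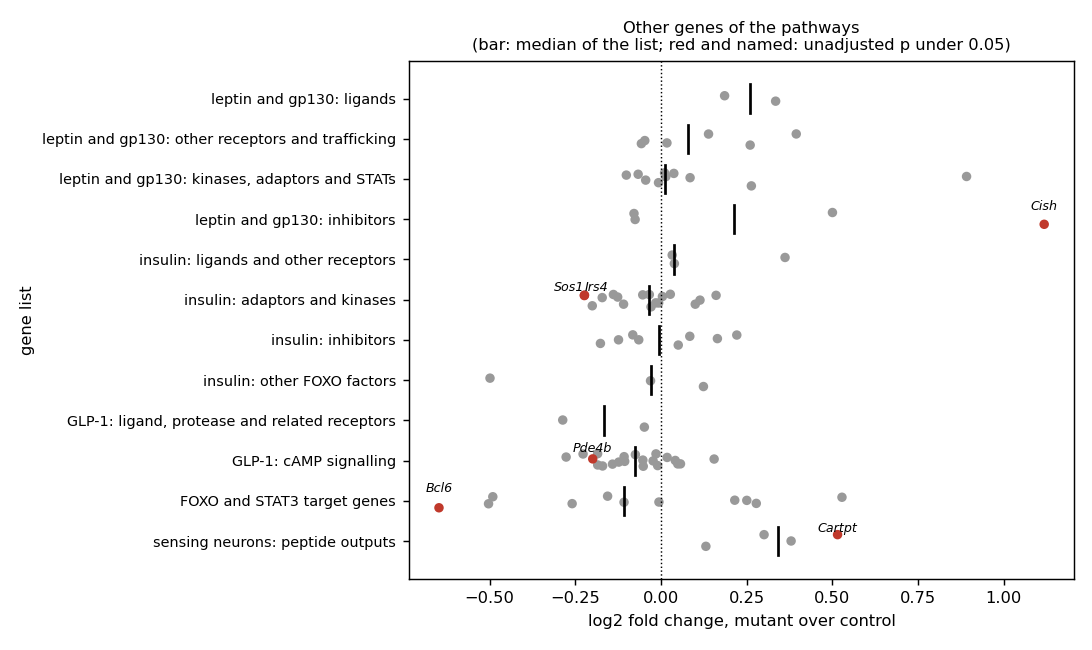
Log2 fold change, mutant over control (x axis), of the 91 tested genes of the 12 lists (y axis), 1 point per gene, with the list's median as a bar and genes with an unadjusted p-value under 0.05 in red. *Cish* lies farthest right at 1.12 and *Bcl6* farthest left at -0.65, and the medians of the lists lie between -0.17 and 0.34.

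Ligands of the leptin and gp130 family were scarce in the ARC. *Lep* had 0 to 2 counts per sample, *Il6* 1 or 2 and *Cntf* 1 to 8, and of 9 ligand genes *Lif* and *Ctf1* alone had enough reads to be tested. The other receptors and trafficking genes gave 0 calls in 6, with a median log2 fold change of 0.08. *Osmr*, the oncostatin M receptor, was at 6.43, 9.83 and 10.5 CPM in controls and at 13.0, 11.2 and 10.99 CPM in mutants, each mutant above each control (log2 fold change 0.39 ± 0.20 SE, edgeR, adjusted *p* = 0.597). *Il6ra* and *Leprotl1* had log2 fold changes of 0.26 and -0.05 (edgeR, adjusted *p* = 0.785 and 0.914). *Leprot*, which limits leptin receptor at the cell surface, had a log2 fold change of -0.06.

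Among 10 kinases, adaptors and STATs, 0 passed, with a median log2 fold change of 0.01. *Jak2* and *Stat3*, the core of leptin signalling, had log2 fold changes of 0.09 and 0.01. *Tyk2* was at 8.84, 9.89 and 9.47 CPM in controls and at 13.0, 10.99 and 9.99 CPM in mutants (log2 fold change 0.26, adjusted *p* = 0.668, edgeR). *Grb2* had a log2 fold change of -0.10 (adjusted *p* = 0.804, edgeR).

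Inhibitors of cytokine receptors gave 0 calls in 4 tested. *Cish*, a SOCS family protein induced by STAT5, was at 5.03, 5.47 and 7.24 CPM in controls and at 14.1, 12.2 and 12.2 CPM in mutants, the largest difference among these pathway genes. Its log2 fold change was 1.12 ± 0.18 (SE, edgeR, adjusted *p* = 0.0567), just above the threshold, and DESeq2 gave an adjusted *p* of 0.000284. *Socs3*, the inhibitor that STAT3 induces after leptin, was at 3.62, 2.21 and 3.51 CPM in controls and at 3.96, 4.52 and 4.66 CPM in mutants. Each mutant was above each control, but the log2 fold change of 0.50 ± 0.26 (SE, edgeR, adjusted *p* = 0.608) did not pass, and without control 2 it was 0.30. *Ptpn2*, a phosphatase related to *Ptpn1*, had a log2 fold change of -0.08 (adjusted *p* = 0.907, edgeR).

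On the insulin side, 0 of 17 adaptors and kinases passed, and 12 of the 17 had negative log2 fold changes, with a median log2 fold change of -0.03, where 7473 of all 15236 tested genes had negative ones. *Sos1*, which links receptor tyrosine kinases to RAS, was at 393, 381 and 389.9 CPM in controls and at 317, 326 and 353 CPM in mutants, which gave a log2 fold change of -0.22 ± 0.08 (SE, edgeR, adjusted *p* = 0.402). *Irs4*, the adaptor that ASB4 binds, had the same log2 fold change, -0.22 (SE 0.10, adjusted *p* = 0.561, edgeR), with overlap between the genotypes, at 1087, 966 and 935 CPM in controls and 944, 778 and 839 CPM in mutants. *Gsk3b*, a kinase that AKT inhibits, had a log2 fold change of -0.17 (adjusted *p* = 0.594, edgeR), with every mutant below every control. Of 8 inhibitors 0 passed, and *Grb10*, which binds the insulin receptor, had the smallest p-value, with a log2 fold change of -0.18 (adjusted *p* = 0.593, edgeR). *Igf1r* was close to equal at 0.03 (adjusted *p* = 0.939, edgeR). *Ins2* had at most 1 count per sample. *Foxo3*, *Foxo4* and *Foxo6* had log2 fold changes of -0.03, 0.12 and -0.50 (edgeR, adjusted *p* = 0.965, 0.904 and 0.760).

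For GLP-1, *Gcg*, which encodes the peptide, had 0 to 4 counts per sample, and the related receptors *Gipr* and *Gcgr* had at most 4 and 8 counts. *Glp2r* and *Dpp4*, the protease that cleaves GLP-1, were tested and had log2 fold changes of -0.29 and -0.05 (adjusted *p* = 0.910 and 0.983, edgeR). Of 21 genes of cAMP signalling 0 passed, 16 had negative and 5 positive log2 fold changes, beside 7473 negative of 15236 over all tested genes, and the median log2 fold change was -0.07. *Pde4b*, described above, had the smallest p-value (log2 fold change -0.20 ± 0.09 SE, edgeR, adjusted *p* = 0.561). The catalytic subunits of protein kinase A, *Prkacb* and *Prkaca*, had log2 fold changes of -0.23 and -0.19 (edgeR, adjusted *p* = 0.627 and 0.673), and the genotypes overlapped.

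Among 11 genes that FOXO or STAT3 are known to induce or that respond to them, 0 passed. Of the 11, 7 had negative log2 fold changes, beside 7473 of all 15236 tested genes, and the median log2 fold change was -0.11. *Bcl6*, a transcriptional repressor, was at 147, 147 and 97.4 CPM in controls and at 81.8, 82.6 and 85.5 CPM in mutants, which gave a log2 fold change of -0.65 (SE 0.15, adjusted *p* = 0.189, edgeR, and 0.00392 with DESeq2). Its controls spread as those of *Glp1r* did, with control 3 nearest the mutants. Without control 3 it passed, at -0.82 (adjusted *p* = 0.0128, edgeR). Leaving out the control nearest the mutants widens the difference by construction, and *Bcl6* did not pass when any other sample was left out. *Serpina3n* and *Timp1* had log2 fold changes of 0.25 and -0.50 (edgeR, adjusted *p* = 0.597 and 0.754).

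The peptides made by the sensing neurons gave 0 calls in 4 with edgeR. *Cartpt* was at 208, 209 and 201 CPM in controls and at 369, 239 and 274 CPM in mutants (log2 fold change 0.52, adjusted *p* = 0.300 with edgeR and 0.0380 with DESeq2). *Npy*, *Pomc* and *Agrp* had log2 fold changes of 0.30, 0.38 and 0.13, and in each the genotypes overlapped.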

How the data were processed

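RNA was measured in microdissected ARC of 3 control and 3 mutant females. From the labels' 50 ng of total RNA, the authors amplified cDNA, sequenced single-end 50 bp reads, mapped them with TopHat2 2.1.0 and counted those on exons with HTSeq 0.6, and they deposited raw counts per gene symbol and sample, without normalization. The submitters' processing notes name mm9 (NCBIM37), the paper NCBI37/mm10, and the files hold no coordinates, so positions and exon lengths are those of GENCODE on NCBIM37, matched by symbol. Amplification before sequencing and the absence of molecular identifiers mean that intervals from counts cover counting error only.

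Samples were grouped by their titles. Mutants were compared with controls in R 4.3.3 with edgeR 4.0.16 (TMM, default filter on low counts, robust quasi-likelihood test, Benjamini-Hochberg adjustment over 15236 genes, threshold 0.05). Standard errors were taken from the F statistic and intervals from its degrees of freedom. Alternatives used DESeq2 1.42.0, the tool of the paper, with and without its beta prior, limma 3.58.1 (voom), RLE normalization, filters of 1 count in any sample or 10 in every sample, the replicate number as a block, and leaving out each sample. The members and gene lists were chosen with earlier results of these data known. Named are the 10 genes, *Esr1*, the 4 peptide genes, up to 3 genes with the smallest p-values of each list and the genes most like *Lepr*, *Insr* and *Glp1r*. *Jak2*, *Stat3*, *Leprot*, *Igf1r*, *Ins2*, *Socs3* and the untested ligands and receptors were named for their roles. *Ghrh*, *Kiss1*, *Tac2*, *Tbx3*, *Cited1* and *Nkx2-1* were named as ARC markers. A gene of the lists is not reported here. The labels do not say whether the replicates were processed apart. The p-values set the difference between the genotypes against the spread between these samples. In that spread, differences between animals, dissections and preparations cannot be told apart. Chi-square per degree of freedom between samples was 6.60 to 29.6, so no library was a copy of another.

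Promoter windows are RefSeq's (GRCm38.p6), found for 9 of the 10 genes and placed on NCBIM37 by exact match. At these depths 3 counts corresponded to between 0.175 and 0.248 CPM. Python 3.11.15, SciPy 1.17.1 and matplotlib 3.10.9 were used.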

Additional observations from a re-analysis of the deposited data

How the results depend on the processing

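Calls among the 10 genes stayed at 0 in all 13 alternatives. Calls among all genes were 18, and 191 with DESeq2, 187 with its beta prior, 106 with a minimum of 1 count in any sample, 123 with the replicate block and 7 to 46 when each sample was left out. Calls among the genes of the pathway lists were 0, and 3 with DESeq2 with or without its beta prior, 1 (*Cish*) with the minimum of 1 count or the replicate block, and 0 to 1 when each sample was left out. The cause was not tested. Differences near 0 changed sign. *Irs1* was at -0.0016 with DESeq2, -0.0014 with its beta prior and -0.0062 with the minimum of 1 count, and *Lepr* at -0.010 with limma voom. When each sample was left out, *Lepr* ran from -0.17 to 0.13, *Insr* from -0.047 to 0.010, *Irs1* from -0.049 to 0.066 and *Foxo1* from -0.086 to 0.098. *Irs2*, *Glp1r*, *Ptpn1*, *Cntfr*, *Il6st* and *Asb4* kept their direction in all 13. With plain totals, 0 of 10 levels per length moved by more than an SD.

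The labels number the replicates alike in both genotypes. Deviations of same-numbered samples from their genotype means correlated across genes at 0.31, 0.049 and 0.019, and 3 of the 6 samples correlated best with their own number, so the numbers were not taken to pair the samples. With the replicate block *Glp1r* had a log2 fold change of -0.56 (adjusted *p* = 0.249, edgeR) and *Asb4* one of -0.20 (adjusted *p* = 0.414, edgeR).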
